A study of Mus musculus with 24 samples.

Results

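The nuclear genes for the subunits of the mitochondrial oxidative phosphorylation complexes were followed across 24 mouse bone marrow samples, each hybridised to 1 Affymetrix gene array. A gene belonged to the set when its probe set carried a single gene symbol of the Nduf (a, b, c, s and v series), Sdh, Uqcr, Cyc1, Cox4 to Cox8 or Atp5 families. By this rule 82 of the 19938 measured genes were members: 33 of complex I, 4 of complex II, 9 of complex III, 19 of complex IV (Ndufa4 and its paralogue Ndufa4l2 included) and 17 of complex V. The rule reads gene symbols and no expression value, but it was set with earlier results of these data known. Where a gene had several probe sets, the 1 with the highest mean over the 24 arrays stood for it, and 16 members had more than 1.

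The leukaemia series of arrays held 3 groups. Tumour-bearing marrow came from 7 mice carrying the BCR/ABLp190 oncogene under the Sca1 promoter together with a single functional copy of Pax5 (Sca1-BCR/ABLp190+Pax5+/-, called heterozygous leukaemias), and from 2 mice with the oncogene and both Pax5 copies (Sca1-BCR/ABLp190). Their control was B220+ B cells from the marrow of 5 wild-type animals. The precursor series held pro-B and pre-B cells taken before leukaemia from 3 Sca1-BCR/ABLp190+Pax5+/- samples (heterozygous precursors), 3 Sca1-BCR/ABLp190 samples and 4 WT samples. Pax5 encodes a transcription factor that holds cells in the B lineage, and the title of the study asks about Pax5 and metabolism on the way to B cell leukaemia. Limits of the groups follow from the labels. The oncogene is driven by the promoter of a stem cell antigen, no sort is named for the leukaemic marrow, the replicates are called biological with no age given, and the description counts 3 wild-type precursor mice where the labels list 4, all of which were used. All mice lived in a conventional facility with common pathogens.

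Oxidative phosphorylation is the mitochondrial route by which cells make most ATP when oxygen is at hand. Complex I takes electrons from NADH and complex II, which is also the citric acid cycle enzyme succinate dehydrogenase, takes them from succinate; coenzyme Q carries them to complex III, cytochrome c carries them on to complex IV, and complex IV hands them to oxygen. Complexes I, III and IV pump protons, and complex V, the ATP synthase, uses the returning protons to make ATP. Proliferating B cell precursors and B cell leukaemias draw on this pathway beside glycolysis. Subunits are encoded partly in mitochondrial DNA and mostly in the nucleus, and messenger RNA levels say nothing by themselves about assembled complexes or respiration.

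Values were the deposited log2 expression levels, and all changes below are differences of log2 group means ± SE from limma, called when the Benjamini-Hochberg adjusted p over all 19938 genes was below 0.05. Over all probe sets, arrays correlated with each other between 0.906 and 0.995. The leukaemic marrow differed from B220+ cells in cell type markers: all 7 B lineage markers were lower in both leukaemia groups, 9 and 7 of 10 macrophage markers were higher in the heterozygous leukaemias and in those with both copies, and 6 of 9 neutrophil markers were higher in the leukaemias with both copies. Megakaryocyte markers were higher too, 4 of 4 and 3 of 4, with medians of 3.11 and 3.63. So were 6 of 7 stroma and endothelium markers in each leukaemia group, with medians of 2.09 and 2.26. Of 4 erythroid markers 0 were called in either group, with medians of 0.75 and 2.12. Their mean level was the highest of all arrays in leukaemia 1 with both copies, followed by heterozygous leukaemia 6 at 10.83. Leukaemia 2 with both copies stood at 7.84, the other heterozygous leukaemias at 6.75 to 9.38 and B220+ cells at 7.89 to 8.22. The mean B lineage marker level was 9.18 to 10.56 in the heterozygous leukaemias, 8.80 to 8.97 in those with both copies and 12.28 to 12.45 in B220+ cells. In such bulk samples fewer cells of a type and less RNA per cell cannot be told apart, and the part of these markers in the results below was not tested. By Xist and Y-linked transcripts all 9 wild-type arrays were female and all 3 arrays of oncogene-bearing precursors with both copies were male, so that sex and genotype cannot be told apart there, while the other groups were mixed.

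The mean level of the 82 members was 9.92 ± 0.099 (SD, n = 7) in heterozygous leukaemias, 9.91 ± 0.071 (n = 2) in leukaemias with both copies and 9.77 ± 0.061 (n = 5) in B220+ cells. In the precursors it was 9.87 ± 0.13 (n = 3) for heterozygous, 9.79 ± 0.076 (n = 3) for both copies and 9.87 ± 0.066 (n = 4) for wild type. The lowest of these means was that of B220+ cells and the highest were those of the leukaemias, and no test was made on them. Complex II stood at 10.44 ± 0.14 in heterozygous leukaemias, 10.39 ± 0.11 in leukaemias with both copies and 10.23 ± 0.061 in B220+ cells, and complex V at 10.93 ± 0.14, 10.88 ± 0.14 and 10.67 ± 0.087. Complex IV, which hands electrons to oxygen, stood at 9.09 ± 0.052, 9.12 ± 0.046 and 9.02 ± 0.059. Heterozygous leukaemia 6 was the lowest of its 7 arrays in all 5 complexes, for instance 9.50 in complex I and 10.67 in complex V. Heterozygous precursor 2 was the highest of its 3 arrays in complexes I, III, IV and V.

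**Figure D1:**
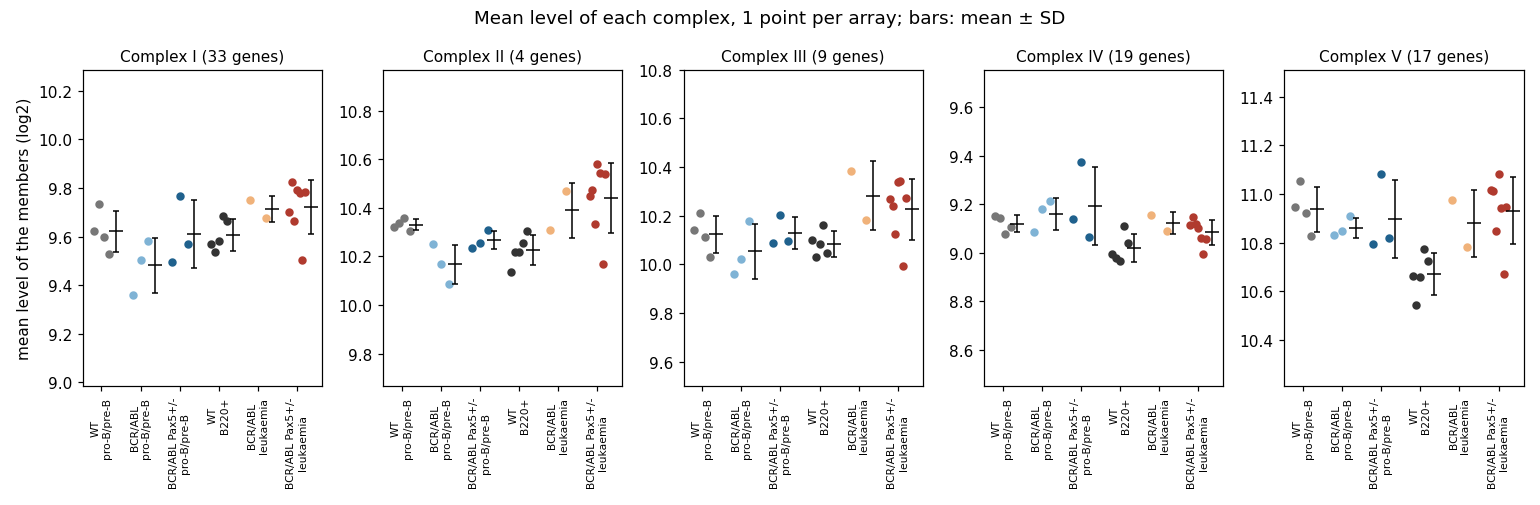
Mean log2 level of the subunit genes of complexes I to V (1 panel each) on every array, by group. Points are arrays and bars are the mean ± SD; in complex V the B220+ arrays average 10.67 and the heterozygous leukaemias 10.93, while in complex IV the same groups average 9.02 and 9.09.

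**Figure D2:**
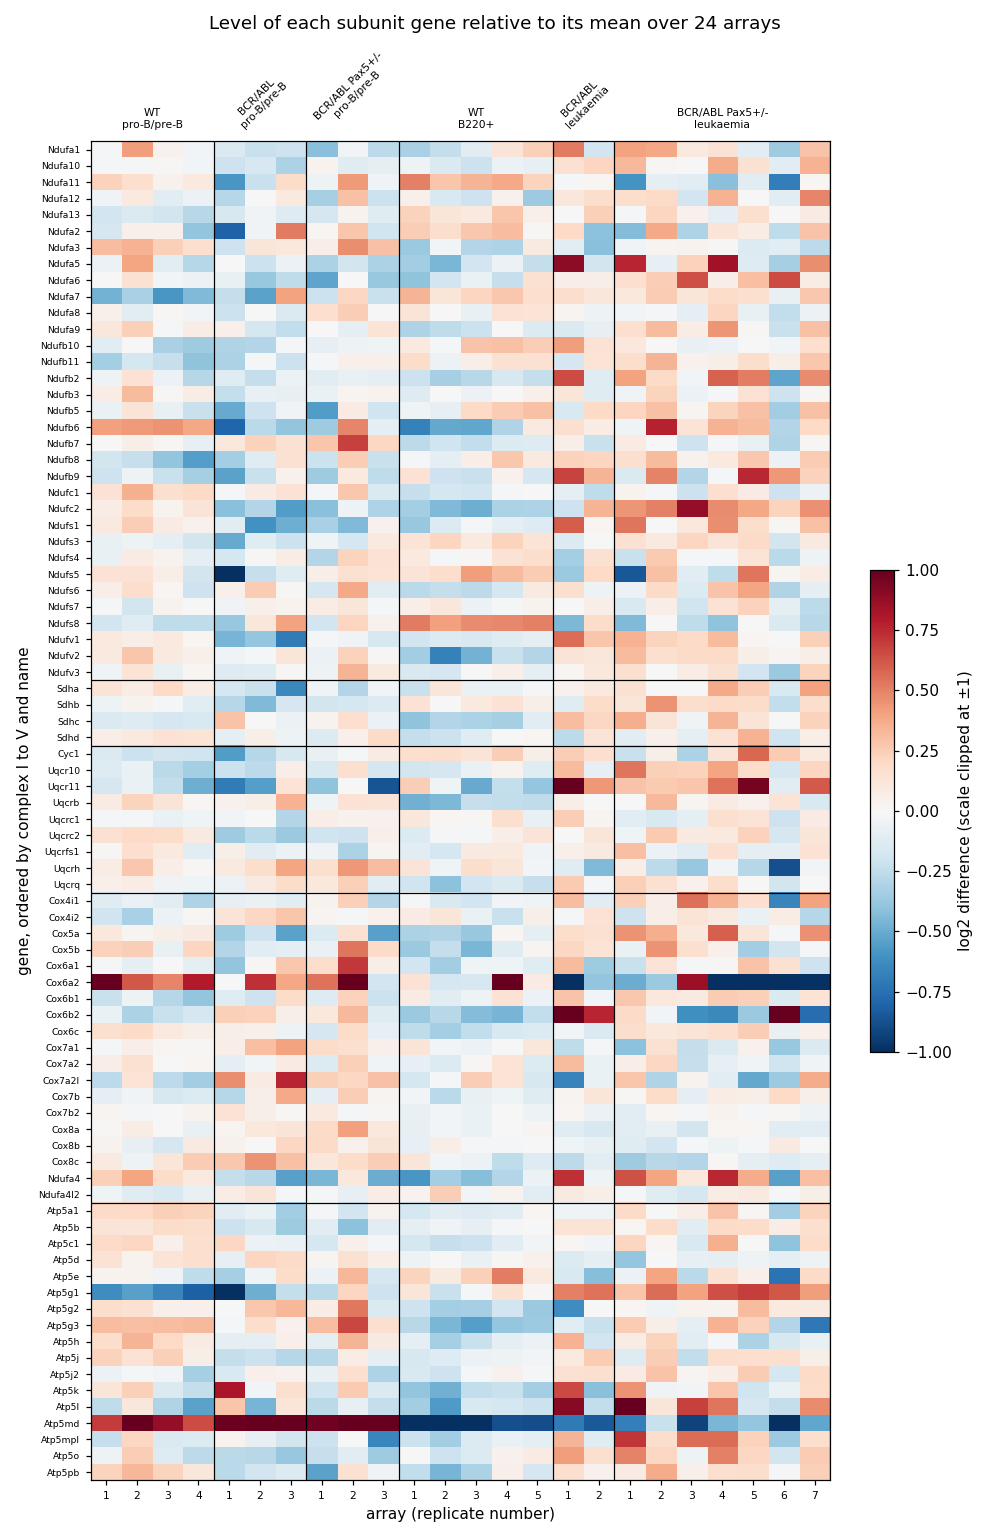
All 82 members (vertical, ordered by complex) on all 24 arrays (horizontal, ordered by group), coloured by the log2 difference from the mean of each gene over the arrays and clipped at ±1. Atp5md stands apart as high on the 10 precursor arrays and low on the other 14.

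The bases just before the start sites of 6 members are shown, because the main contrasts below turn on them: Ndufv1, Uqcr11 and Atp5g1 were higher in both leukaemia groups than in B220+ cells, Ndufs8 and Ndufa11 were lower in the heterozygous leukaemias, and Atp5md separated the precursor arrays from the rest. The 250 bases upstream of the annotated start are from RefSeq, build GRCm38.p6, written 5′ to 3′ on the gene's strand. Capitals mark matches to motifs of factors known to act on respiratory genes.

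Ndufv1 (chr19:4012756-4013005, minus strand): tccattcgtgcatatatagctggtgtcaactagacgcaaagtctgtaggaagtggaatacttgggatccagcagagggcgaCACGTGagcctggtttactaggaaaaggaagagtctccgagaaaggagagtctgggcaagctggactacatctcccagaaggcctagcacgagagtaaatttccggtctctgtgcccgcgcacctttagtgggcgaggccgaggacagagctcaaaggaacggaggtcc
Uqcr11 (chr10:80406822-80407071, minus strand): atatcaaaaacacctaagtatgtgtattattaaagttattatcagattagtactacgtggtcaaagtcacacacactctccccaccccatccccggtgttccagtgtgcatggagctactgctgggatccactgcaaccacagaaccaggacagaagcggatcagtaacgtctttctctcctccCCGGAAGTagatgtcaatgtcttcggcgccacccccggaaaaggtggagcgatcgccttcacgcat
Atp5g1 (chr11:96075632-96075881, minus strand): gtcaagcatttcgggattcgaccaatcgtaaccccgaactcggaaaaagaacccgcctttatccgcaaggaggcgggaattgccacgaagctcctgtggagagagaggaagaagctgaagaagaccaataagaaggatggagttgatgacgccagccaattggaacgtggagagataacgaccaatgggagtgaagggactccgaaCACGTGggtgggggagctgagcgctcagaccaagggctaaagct
Ndufs8 (chr19:3912775-3913024, minus strand): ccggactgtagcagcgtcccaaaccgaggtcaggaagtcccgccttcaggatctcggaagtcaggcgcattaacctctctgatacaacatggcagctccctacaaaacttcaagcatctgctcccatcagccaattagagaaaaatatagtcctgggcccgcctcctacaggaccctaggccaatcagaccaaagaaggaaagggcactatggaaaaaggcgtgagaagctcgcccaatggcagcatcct
Ndufa11 (chr17:56717512-56717761, plus strand): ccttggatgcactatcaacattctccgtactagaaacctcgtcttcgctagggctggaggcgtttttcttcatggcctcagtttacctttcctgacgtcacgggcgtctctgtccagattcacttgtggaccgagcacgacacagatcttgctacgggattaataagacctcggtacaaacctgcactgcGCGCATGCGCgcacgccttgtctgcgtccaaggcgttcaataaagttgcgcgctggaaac
Atp5md (chr19:47090648-47090897, minus strand): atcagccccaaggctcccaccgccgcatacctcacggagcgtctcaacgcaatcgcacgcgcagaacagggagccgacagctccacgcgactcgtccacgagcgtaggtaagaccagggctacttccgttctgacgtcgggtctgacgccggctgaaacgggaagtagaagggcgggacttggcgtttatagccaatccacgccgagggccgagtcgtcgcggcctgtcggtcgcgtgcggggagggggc

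The capitals are an E-box (CACGTG) in Ndufv1 and Atp5g1, an ETS site (CCGGAAGT) in Uqcr11 and an NRF1 site (GCGC, any base, then TGCGC) in Ndufa11, and none of the searched letters were in the Ndufs8 and Atp5md windows. The match in Ndufa11, GCGCATGCGC, reads alike on both strands. Of the members, 66 had a promoter window in the RefSeq table, 71 windows in all, each of 250 bases before and 50 after the start. The NRF1 letters, bound by a regulator of nuclear respiratory genes, were in 23.9% of these windows on either strand against 4.6% of all 32851 windows, in 16 member genes that included Ndufa6, Sdha, Sdhd, Uqcrc1, Atp5c1, Atp5g2 and Atp5g3. The YY1 letters AAGATGGCG were in 9.86% of member windows against 1.4% of all, the ETS letters in 7.04% against 3.89%, the ERR letters TNAAGGTCA in 2.82% against 1.28%, and the E-box in 9.86% against 7.15%. A match is a description of letters and not of binding.

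The first question was how the heterozygous leukaemias differed from B220+ cells. More subunit genes were higher than lower: 22 of 82 were called higher and 2 lower, with a median change of 0.15 against -0.060 over all genes. The called share has to be read against all genes, of which 31.8% were called, 12.9% higher and 18.9% lower. The higher members came from every complex: 8 of 33 in complex I, 1 of 4 in complex II, 4 of 9 in complex III, 4 of 19 in complex IV and 5 of 17 in complex V. Both lower members were in complex I. Between these groups 12 members did not overlap, 10 higher and 2 lower, and 20.1% of all genes did not.

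**Figure D3:**
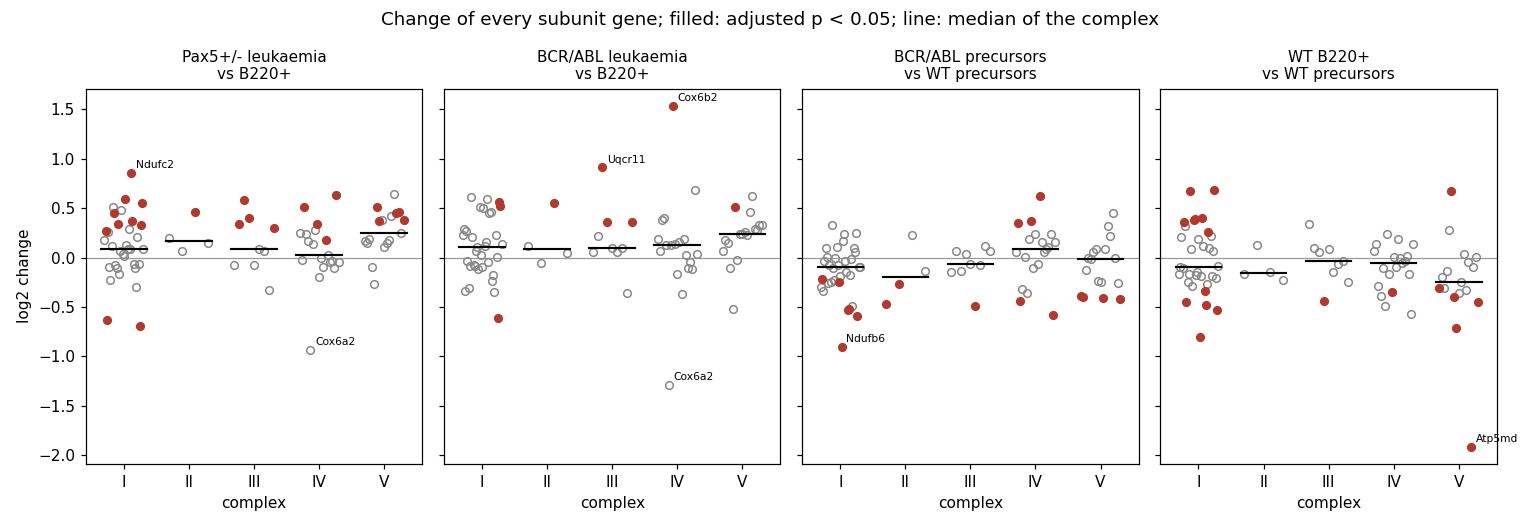
Log2 change of every member (points) by complex in 4 comparisons: heterozygous leukaemias and leukaemias with both copies against B220+ cells, oncogene-bearing precursors with both copies against wild-type precursors, and B220+ cells against wild-type precursors. Filled points passed an adjusted p of 0.05 and lines are the medians of each complex; in complex V the median is 0.25 for the heterozygous leukaemias against B220+ cells and -0.25 for B220+ cells against wild-type precursors.

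Among the core subunits of complex I, which between them carry the flavin and the iron-sulphur clusters, 3 were higher and 1 lower of the 6 measured. Ndufv2, an iron-sulphur subunit of the NADH-oxidising tip, ran from 11.37 over a median of 11.50 to 11.65 in the leukaemias, and was 10.99, 10.66, 10.86, 11.11 and 11.05 in B220+ cells. Every leukaemia lay above every B220+ array, and the change was 0.55 ± 0.077 (adjusted p = 0.000191). Ndufv1, which binds NADH and the flavin, ran from 9.84 over 10.05 to 10.18 against 9.64, 9.70, 9.68, 9.71 and 9.74, again without overlap, a change of 0.33 ± 0.07 (adjusted p = 0.00347). Ndufs1, the largest subunit of the peripheral arm, rose by 0.37 ± 0.12 (adjusted p = 0.0332), a call lost on leaving out 1 array in 6 of 12 cases, with adjusted p up to 0.0876.

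Ndufs8, the core subunit that hands electrons on towards coenzyme Q, went the other way. It ran from 10.64 over 10.82 to 11.08 in the leukaemias and was 11.60, 11.48, 11.55, 11.55 and 11.58 in B220+ cells. The B220+ arrays were tightly grouped and all above the leukaemias, which were 1.62-fold lower (-0.69 ± 0.11, adjusted p = 0.000374). Wild-type precursors, at 10.89, 10.96, 10.82 and 10.82, lay within the range of the leukaemias. The remaining core subunits Ndufs3 (-0.06 ± 0.065, adjusted p = 0.46) and Ndufs7 (-0.07 ± 0.083, adjusted p = 0.56) did not pass the test.

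Of the accessory subunits of complex I, which surround the core and hold it together, Ndufc2 changed most. It ran from 12.30 over 12.54 to 12.96 in the leukaemias and was 11.75, 11.65, 11.59, 11.77 and 11.78 in B220+ cells, 1.81-fold higher without overlap (0.86 ± 0.11, adjusted p = 8.96e-05). Ndufb6 in the membrane arm rose by 0.59 ± 0.17 (adjusted p = 0.0178), although its B220+ array 5, at 10.39, lay inside the leukaemia range of 10.01 to 11.07. Without B220+ array 1 the adjusted p of Ndufb6 was 0.0502. Ndufa6, an accessory subunit of the arm that faces the matrix, rose by 0.45 ± 0.12 (adjusted p = 0.0142). Ndufa11, a membrane subunit at the contact with complex III in supercomplexes, fell by 0.63 on the log2 scale: it ran from 9.57 over 10.16 to 10.28 in the leukaemias and was 10.77, 10.54, 10.61, 10.65 and 10.49 in B220+ cells (SE 0.12, adjusted p = 0.00188), without overlap.

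In complex II only Sdhc, a membrane anchor, was called. It ran from 10.12 over 10.29 to 10.52 against 9.76, 9.87, 9.84, 9.83 and 10.04, with every leukaemia above every B220+ array (0.46 ± 0.077, adjusted p = 0.000724). The flavoprotein Sdha (0.20 ± 0.098, adjusted p = 0.138), the iron-sulphur subunit Sdhb (0.06 ± 0.096, adjusted p = 0.639) and the other anchor Sdhd (0.14 ± 0.1, adjusted p = 0.285) did not pass.

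In complex III the 4 higher members, Uqcrb, Uqcrq, Uqcr10 and Uqcr11, are all small supernumerary subunits. The catalytic Rieske protein Uqcrfs1 (0.06 ± 0.083, adjusted p = 0.57) and cytochrome c1, Cyc1 (-0.07 ± 0.13, adjusted p = 0.674), did not pass. Uqcrb, which lies by the quinone site, ran from 11.55 over 11.74 to 12.03 against 11.22, 11.26, 11.48, 11.46 and 11.45, without overlap (0.39 ± 0.077, adjusted p = 0.00197). Uqcr11 changed more but with more scatter, from 9.40 over 9.79 to 10.46 against 9.75, 9.46, 9.0, 9.27 and 9.12. B220+ arrays 1 and 2 overlapped the leukaemias (0.59 ± 0.18, adjusted p = 0.0269), and the call was lost without B220+ array 3, 4 or 5, with adjusted p of 0.0733, 0.0526 and 0.0679. The 2 probe sets of Uqcr11 changed in the same direction, but not both passed.

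In complex IV the called members were Ndufa4, Cox5a, Cox6c and Cox7b, all higher. Cox6c, a small membrane subunit, ran from 12.70 over 12.91 to 13.02 and was 12.52, 12.43, 12.53, 12.62 and 12.64 in B220+ cells, without overlap (0.34 ± 0.059, adjusted p = 0.000803). Cox5a, a subunit on the matrix side, rose by 0.51 ± 0.11 (adjusted p = 0.00376). Ndufa4, first named as a complex I subunit and now counted with complex IV, rose by 0.63 ± 0.20 (adjusted p = 0.0333), but heterozygous leukaemia 6 at 9.03 lay among the B220+ arrays (8.99 to 9.51), and leaving out 1 array lost the call in 8 of 12 cases, with adjusted p up to 0.0816. Cox7b rose by 0.18 ± 0.06 (adjusted p = 0.0415), also lost in 8 of 12 such cases.

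In complex V the rises lay in the membrane part and the stalk, while 0 of the 5 measured subunits of the catalytic F1 head passed. The genes of the head include the alpha subunit Atp5a1 (0.17 ± 0.092, adjusted p = 0.187), the beta subunit Atp5b (0.15 ± 0.055, adjusted p = 0.0583) and the gamma subunit Atp5c1 (0.18 ± 0.11, adjusted p = 0.216). Atp5g1, Atp5g2 and Atp5g3 encode the same mature c subunit of the rotor ring. Atp5g1 ran from 11.46 over 11.75 to 11.88 in the leukaemias and was 11.31, 10.97, 11.16, 11.34 and 11.20 in B220+ cells, without overlap (0.51 ± 0.084, adjusted p = 0.000579). Atp5g2 rose by 0.37 ± 0.094 (adjusted p = 0.0101), from 11.79 to 11.97 in B220+ cells to 12.12 to 12.48 in the leukaemias, and Atp5g3, at 10.38 to 11.44 in the leukaemias and 10.55 to 10.82 in B220+ cells, did not pass (0.38 ± 0.16, adjusted p = 0.0843). Atp5pb, the stalk subunit b, rose by 0.38 ± 0.088 (adjusted p = 0.00522).

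The direction of the whole set in this comparison depended on scaling. With each array centred on its median, 10 members were called higher and 18 lower, of which 12 were among the 24 calls above, the members' median was 0.0078 and that of all genes -0.20; with cyclic loess 28 were higher and 2 lower. A total of 11 calls were kept on leaving out each array in turn and under each of the other settings tried within the B220+ comparison: Atp5g1, Atp5pb, Cox5a, Cox6c, Ndufa6, Ndufc2, Ndufv2, Sdhc and Uqcrb higher, and Ndufa11 and Ndufs8 lower. Among these, Atp5pb with 2 probe sets and Uqcrb with 3 had probe sets that did not all pass, though all changed in the same direction.

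The choice of normal cell also mattered. Against wild-type pro-B and pre-B cells in place of B220+ cells, 12 members were called higher and 8 lower in the heterozygous leukaemias, where 32.2% of all genes were called (12.7% higher, 19.6% lower). Of the 24 genes called against B220+ cells, Atp5g1 (1.18, adjusted p = 1.04e-06), Uqcr11 (0.65, adjusted p = 0.0203), Uqcr10 (0.43, adjusted p = 0.00486), Ndufc2 (0.37, adjusted p = 0.0103) and Sdhc (0.31, adjusted p = 0.00496) were again higher and Ndufa11 (-0.42, adjusted p = 0.0296) again lower. Another 17 were not called, among them Ndufs8 (-0.01), Ndufv2 (0.02), Ndufv1 (0.12), Cox6c (-0.01), Uqcrb (-0.05) and Atp5pb (-0.07). Atp5md was called lower (-1.47, adjusted p = 2.48e-06) where it had been higher against B220+ cells (0.45 ± 0.15, adjusted p = 0.0387, a call lost on leaving out 1 array in 8 of 12 cases). Both series of arrays enter this comparison, and whether they were normalized together is not stated.

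The leukaemias with both Pax5 copies, represented by 2 mice, were compared with the same B220+ arrays. There 8 members were called higher and 1 lower, with a median of 0.13 against -0.073 for all genes, of which 21.4% were called (9.48% higher, 11.9% lower). The 9 calls became 16 with cyclic loess, 2 with array weights and 5 with the replicate block, and median centring turned the median to -0.0043. The higher members were Ndufv1, Ndufv2, Sdhc, Uqcr11, Uqcrb, Uqcrq, Atp5g1 and Cox6b2, and Ndufs8 was lower. All but Cox6b2 were called in the same direction in the heterozygous leukaemias too, which share the B220+ control. Thus 7 of the 22 higher calls there and 7 of the 8 here were the same genes. The share of all genes called alike in both leukaemia groups was not counted.

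Ndufv1 was 10.39 and 10.11 in the leukaemias with both copies, both above the highest B220+ array (9.74), a change of 0.56 ± 0.10 (adjusted p = 0.00197). It was the only call here kept both on leaving out each array and under the other settings within this comparison. Atp5g1 was 11.69 and 11.73 (0.52 ± 0.12, adjusted p = 0.00882), and Ndufv2 11.46 and 11.45 (0.52 ± 0.11, adjusted p = 0.00502). Sdhc rose by 0.55 ± 0.11 (adjusted p = 0.00398). Ndufs8 was 10.63 and 11.26, both below every B220+ array (-0.61 ± 0.15, adjusted p = 0.0137), and with the replicate number as a block its adjusted p was 0.0566. Array 1 of this group carried much of the result: without it 3 members were called instead of 9, Ndufs8 changed by -0.29 (adjusted p = 0.256) and Uqcr11 lost its call (adjusted p = 0.268) and, without the other array, the count was 14. The calls of Atp5g1 (adjusted p = 0.0532) and Sdhc (adjusted p = 0.052) were also lost without array 1, and leaving out 1 array lost those of Uqcrb and Uqcrq in 4 and 5 of 7 cases. Not every probe set of Uqcrb and of Uqcr11 passed in this comparison, though those of each gene changed in the same direction. Between these groups 33 members did not overlap, 25 higher and 8 lower, against 43.4% of all genes.

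Cox6b2, an isoform of a complex IV subunit best known from testis, had the largest change in this comparison. It was 9.12 and 8.30 against 7.16, 7.25, 7.10, 7.07 and 7.29 in B220+ cells, 2.9-fold higher (1.54 ± 0.50, adjusted p = 0.0442). The call was lost on leaving out 1 array in 6 of 7 cases, with adjusted p up to 0.311. In the heterozygous leukaemias Cox6b2 lay between 6.78 and 7.73 on 6 arrays and stood at 9.16 in heterozygous leukaemia 6 (0.27 ± 0.35, adjusted p = 0.563). The 3 highest arrays of the 24 were thus those 3 leukaemias.

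Between the leukaemias with 1 and with 2 copies of Pax5, limma called 0 members, where 1.87% of all genes were called, and 6 members had an unadjusted p below 0.05. The members' median difference, heterozygous minus both copies, was 0.0056 against 0.015 for all genes, and 0 members were without overlap, against 8.54% of all genes. The differences with the smallest p were Atp5g2 (0.39 ± 0.13, adjusted p = 0.165), Ndufc2 (0.41 ± 0.15, adjusted p = 0.212) and Cox6b2 (-1.26 ± 0.48, adjusted p = 0.234). Without heterozygous leukaemia 6, Cox6b2 was called (-1.55, adjusted p = 0.0076), and with array 2 of the other leukaemia group left out 2 members were, Atp5g2 among them (0.70, adjusted p = 0.00229). With 2 arrays in a group, a missed threshold does not show that the leukaemias were alike.

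The normal cells were compared with each other because each served as a control. B220+ marrow cells span the B lineage up to mature cells, and against wild-type pro-B and pre-B cells 8 members were higher and 12 lower, with a median of -0.10 against 0.0035 over all genes, of which 8.84% were called (4.57% higher, 4.26% lower). This comparison joins the leukaemia and precursor series, so series and cell source cannot be told apart, and array weights raised the count from 20 to 39. Complex I held 7 of the 8 higher members and 5 of the 12 lower ones, and complex V held 1 higher and 5 lower. Without overlap were 33 members, 9 higher and 24 lower, against 22.5% of all genes. All 19 measured cell cycle genes were lower in B220+ cells, with a median of -1.51, and their part in these changes was not tested.

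Atp5md, a small membrane subunit of the ATP synthase, had the largest change. It was 9.62, 9.36, 9.76, 9.89 and 9.88 in B220+ cells and 11.47, 11.93, 11.64 and 11.42 in wild-type precursors, 3.77-fold lower (-1.92 ± 0.18, adjusted p = 1.99e-06). Its 3 probe sets gave changes of -1.84, -1.85 and -1.92. Atp5g3 was also lower (-0.72 ± 0.16, adjusted p = 0.00488), while Atp5g1, for the same mature protein, was higher (0.67 ± 0.14, adjusted p = 0.00281). In complex I, Ndufs8 (0.68 ± 0.14, adjusted p = 0.00261) and Ndufa7 (0.68 ± 0.13, adjusted p = 0.00193), an accessory subunit of the matrix arm, were higher, and Ndufb6 (-0.80 ± 0.19, adjusted p = 0.00894) and Ndufv2 (-0.53 ± 0.084, adjusted p = 0.000392) lower.

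The precursor comparisons ask what the oncogene and the Pax5 copy do before leukaemia. In oncogene-bearing precursors with both copies, against wild type, 3 members were higher and 15 lower, with a median of -0.068 against 0.037 over all genes. Of all genes 27.1% were called, 11.6% higher and 15.5% lower. All calls in complexes I (6), II (2), III (1) and V (4) were lower, and complex IV had 3 higher and 2 lower. Of the 82 members 30 did not overlap, 24 lower and 6 higher, against 42.2% of all genes.

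In complex I, Ndufv1 was 9.37, 9.44 and 9.14 in the oncogene-bearing cells and 9.93, 9.90, 9.93 and 9.85 in wild type, wholly apart (-0.59 ± 0.077, adjusted p = 0.00296). Ndufb6 was 9.51, 10.03 and 9.91 against 10.71, 10.72, 10.75 and 10.69, 1.87-fold lower (-0.90 ± 0.18, adjusted p = 0.00988). Ndufc2 fell by 0.53 ± 0.094 (adjusted p = 0.00642) and Ndufs1 by 0.52 ± 0.14 (adjusted p = 0.0249). In all 4 genes the groups did not overlap and the wild-type arrays were the higher ones. In complex II both catalytic subunits were lower, Sdha at 10.71, 10.67 and 10.25 against 11.03, 10.96, 11.09 and 10.96 (-0.47 ± 0.11, adjusted p = 0.0181) and Sdhb by 0.26 ± 0.069 (adjusted p = 0.0233), and the anchor Sdhd did not pass (adjusted p = 0.19). The other anchor, Sdhc, went the other way without passing (0.22). It was 10.44, 10.16 and 10.10 against 10.01, 10.03, 9.99 and 10.01, without overlap.

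In complex III, Uqcrc2, a core protein with no redox centre, was 11.10, 11.18 and 11.08 against 11.61, 11.65, 11.64 and 11.54 (-0.49 ± 0.071, adjusted p = 0.00384). Cyc1 did not pass (-0.15 ± 0.088, adjusted p = 0.212). In complex V, 2 of the 5 F1 head subunits were called lower: Atp5a1 was 11.51, 11.54 and 11.27 against 11.80, 11.81, 11.85 and 11.84 (-0.39 ± 0.08, adjusted p = 0.0103), and Atp5b 12.41, 12.46 and 12.26 against 12.75, 12.74, 12.80 and 12.80 (-0.40 ± 0.083, adjusted p = 0.0105). The other calls of complex V were the stalk subunits Atp5j and Atp5pb, both lower, and the gamma subunit Atp5c1 did not pass (adjusted p = 0.269). For Atp5a1 and Atp5b every oncogene-bearing array was below every wild-type one.

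In complex IV, Ndufa4 (-0.58 ± 0.15, adjusted p = 0.0203) and Cox5a (-0.44 ± 0.14, adjusted p = 0.0449) were lower. The 3 higher members were Cox7a2l, a factor for the joining of complexes III and IV (0.62 ± 0.16, adjusted p = 0.0199), and the isoforms Cox6b2 (0.37 ± 0.10, adjusted p = 0.0297) and Cox4i2 (0.34 ± 0.082, adjusted p = 0.0164). Cox7a2l overlapped, at 10.29, 9.91 and 10.59 against 9.56, 9.96, 9.56 and 9.47. Its 2 probe sets changed in opposite directions, and not both passed. Cox4i2 was 7.43, 7.51 and 7.58 against 7.10, 6.97, 7.24 and 7.32. These values lay at or above the median of all gene levels and below the upper quartile (quartiles 5.68, 6.97 and 8.91).

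Of these 18 calls 7 were kept on leaving out each array in turn (Atp5a1, Atp5b, Atp5j, Ndufb6, Ndufc2, Ndufv1 and Uqcrc2), and the count fell to 10 without array 3 of the oncogene-bearing group and to 11, 10 and 9 without wild-type arrays 1, 2 and 3. Sdha lost its call without wild-type array 3 (adjusted p = 0.0534) and Cox4i2 without oncogene-bearing array 3 (0.065). On leaving out 1 array of 7 the call was lost in 2 cases for Ndufa4, 3 for Cox7a2l, 4 for Sdhb and Cox6b2, 5 for Ndufs1 and 7 for Cox5a. Under cyclic loess 5 members were higher and 5 lower, with a median of 0.077, and Atp5j (adjusted p = 0.126) and Ndufb6 (adjusted p = 0.0562) lost their calls. Beside these changes, 10 of 19 cell cycle genes were lower, with a median of -1.09, and 3 of 5 T and NK cell markers were lower. The part of the cell cycle and of these cells was not tested.

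In the heterozygous precursors 1 member was called against wild type, where 4.17% of all genes were called (1.23% higher, 2.94% lower), and 19 had an unadjusted p below 0.05. The call was Atp5b, the catalytic beta subunit, at 12.50, 12.21 and 12.52 against 12.75, 12.74, 12.80 and 12.80 (-0.36 ± 0.083, adjusted p = 0.0439). All 3 arrays were below wild type, but the call was lost with the replicate block (adjusted p = 0.112), with median centring (0.0604), and without any of the 4 wild-type arrays or heterozygous array 1 or 2 (adjusted p from 0.0626 to 0.124). With array weights 8 members were higher and 16 lower. Ndufc2 (-0.37 ± 0.094, adjusted p = 0.0614), Uqcrc2 (-0.27 ± 0.071, adjusted p = 0.0623) and Atp5a1 (-0.27 ± 0.08, adjusted p = 0.087) had values below 0 without passing. Without overlap were 18 members, 10 higher and 8 lower, against 24.3% of all genes. The 2 comparisons with wild type share its arrays.

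Between the oncogene-bearing precursors limma called 0 members and 0.0251% of all genes (0.015% higher, 0.01% lower), and 13 members had an unadjusted p below 0.05. The median, heterozygous minus both copies, was 0.057 against -3.07e-05 for all genes, and it turned to -0.0275 without heterozygous precursor 2 and to -0.0661 with cyclic loess. Ndufv1 had the smallest p: 9.81, 9.80 and 9.67 in heterozygous precursors and 9.37, 9.44 and 9.14 in those with both copies (0.44 ± 0.082, adjusted p = 0.144), without overlap, and with array weights it passed (0.46, adjusted p = 0.0463). Cyc1, at 10.32, 10.37 and 10.47 against 9.83, 10.10 and 10.23, differed by 0.33 ± 0.094 (adjusted p = 0.198). Of the members 11 did not overlap, 9 higher and 2 lower, against 16.5% of all genes.

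Leukaemias were then set against precursors of the same genotype. These comparisons join the 2 series of arrays, so series and stage cannot be told apart, and marrow with no named sort is set against pro-B and pre-B cells. With heterozygous Pax5, 15 members were higher and 12 lower, with a median of 0.083 against -0.076 for all genes, of which 44.7% were called (16.4% higher, 28.4% lower). With both copies, 17 were higher and 8 lower, with a median of 0.17 against -0.078 for all genes, of which 45.7% were called (18.1% higher, 27.6% lower). Array weights moved the heterozygous count from 27 to 41 and the other from 25 to 5, and the median with both copies was 0.0768 with cyclic loess and 0.0815 without leukaemia 1. The heterozygous count fell to 17 without heterozygous precursor 3, and the other count to 14 when leukaemia 1 of that genotype was left out. Without overlap were 11 members with heterozygous Pax5 (32.5% of all genes) and 42 with both copies (61.6% of all genes).

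By complex the calls were as follows. With both copies, complex I had 6 higher and 0 lower, complex II 2 and 0, complex III 3 and 1, complex IV 2 and 5, and complex V 4 and 2. With heterozygous Pax5 the counts were 5 and 3, 1 and 0, 2 and 1, 2 and 5, and 5 and 3. In both comparisons 12 members were higher, of 15 and of 17, and 6 were lower in both, of 12 and of 8: Uqcrh, the hinge protein of complex III, Cox6a2, Cox7a1, Cox8a, Cox8c and Atp5md. Of the 15 members that were lower in oncogene-bearing precursors with both copies than in wild type, 11 were among the 17 higher in the leukaemias of that genotype. Both comparisons use the same 3 precursor arrays. For none of these overlaps was the share of all genes called in both comparisons counted, so whether they are unusual was not tested.

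Ndufv1 was the 1 member called for a stage difference that differed with the Pax5 copy. Its change from precursor to leukaemia was 0.93 ± 0.10 (adjusted p = 2.41e-06) with both copies, from 9.37, 9.44 and 9.14 to 10.39 and 10.11, and 0.26 ± 0.078 (adjusted p = 0.0104, and 0.0669 without heterozygous precursor 3) in heterozygous samples, from 9.81, 9.80 and 9.67 to a median of 10.05. The difference of the changes was -0.67 ± 0.13 (adjusted p = 0.016), and 0.692% of all genes passed this test (0.226% higher, 0.466% lower). It was lost with cyclic loess (-0.52, adjusted p = 0.171), with array weights (-0.68, adjusted p = 0.077), without leukaemia 1 of the genotype with both copies (-0.53, adjusted p = 0.0717) and without array 3 of their precursors (-0.58, adjusted p = 0.0526). All precursors with both copies were male, and the part of sex was not tested.

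Atp5g1 was the member that set the leukaemias apart from all normal and precursor samples, a split looked for after the values were seen. All 9 leukaemias lay between 11.46 and 11.88 and the other 15 arrays between 10.10 and 11.40; 6.6% of all genes separated the arrays in this way. Precursors were 10.92, 11.40 and 10.98 (heterozygous), 10.10, 10.70 and 10.95 (both copies) and 10.56, 10.64, 10.52 and 10.37 (wild type). The leukaemias with both copies were 1.13 ± 0.18 above their precursors (adjusted p = 0.000137), and the heterozygous ones 0.60 ± 0.14 (adjusted p = 0.00199).

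Atp5md made the other clean split, also looked for afterwards. All 10 precursor arrays lay between 11.42 and 12.45 and all 14 arrays of the leukaemia series between 9.36 and 10.55, which 0.868% of all genes did. From precursor to leukaemia it changed by -1.93 ± 0.19 (adjusted p = 2.65e-07) in heterozygous samples and -2.08 ± 0.25 (adjusted p = 5.25e-06) with both copies. The split follows the series of arrays as well as the source of the cells, and these cannot be told apart.

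**Figure D4:**
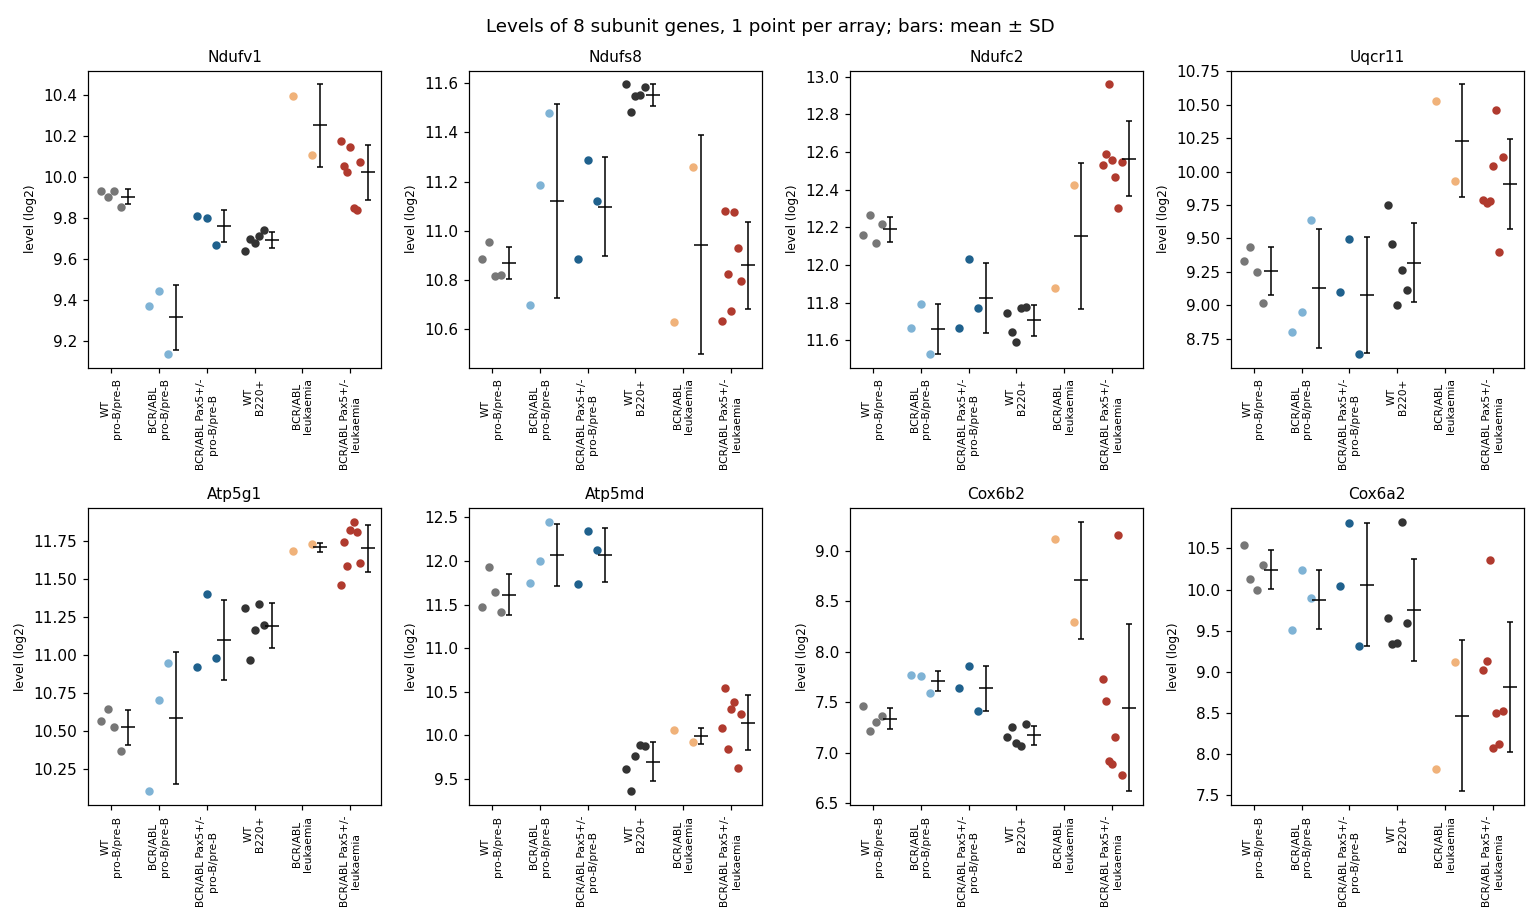
Log2 level of 8 members on every array by group, with the mean ± SD as bars: Ndufv1, Ndufs8, Ndufc2, Uqcr11, Atp5g1, Atp5md, Cox6b2 and Cox6a2. The Atp5g1 leukaemias lie at 11.46 or above and the other arrays at 11.40 or below, and Cox6b2 shows the 3 leukaemia arrays above 8.

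Complex IV has paralogous isoforms known from particular tissues. Cox6a2, the heart and muscle isoform of subunit VIa, was the most scattered, from 8.07 over 8.52 to 10.36 in heterozygous leukaemias, 7.82 and 9.11 in those with both copies, 9.65, 9.34, 9.35, 10.83 and 9.59 in B220+ cells and 9.32 to 10.81 in the precursors. The leukaemias were lower than their precursors (-1.24 ± 0.43, adjusted p = 0.0246, and -1.41 ± 0.57, adjusted p = 0.0479), calls that were lost without heterozygous precursor 1 or 2 and in 3 of 5 cases, with adjusted p up to 0.17 and 0.399. Against B220+ cells neither passed (-0.93 ± 0.41, adjusted p = 0.0964, and -1.29 ± 0.58, adjusted p = 0.132). Of 9 muscle and adipocyte markers, 1 was higher and 2 were lower in the heterozygous leukaemias against B220+ cells.

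Cox8a, the common form of subunit VIII, was 0.31 ± 0.058 lower in heterozygous leukaemias than in their precursors (adjusted p = 0.000302), and Cox8c, a testis form, 0.36 ± 0.085 lower (adjusted p = 0.0023) at 6.13 to 6.5 against 6.61, 6.67 and 6.74. With both copies, Cox8c was 0.52 ± 0.11 lower (adjusted p = 0.00128). Group means of the common forms ranged from 9.78 to 10.09 for Cox4i1, 10.15 to 10.62 for Cox6a1, 11.04 to 11.42 for Cox6b1, 9.79 to 9.96 for Cox7a2 and 12.2 to 12.39 for Cox7b. Those of Cox7a1 (6.49 to 6.90), Cox8b (5.73 to 5.91), Cox7b2 (4.77 to 4.89) and Ndufa4l2 (5.96 to 6.14) lay below the median of all gene levels, 6.97. Cox8c was also below that median on every array, from 6.13 to 6.94, so its calls above are changes at a low level.

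Genes that build and serve the complexes were counted from lists. Of 43 assembly factors, 8 were higher and 9 lower in the heterozygous leukaemias against B220+ cells, with a median of -0.01 (12.9% and 18.9% of all genes). Sdhaf2, which adds the flavin to Sdha, fell by 1.16 ± 0.081 (adjusted p = 8.24e-07), and the complex I factors Ndufaf4 (0.71 ± 0.089, adjusted p = 7.49e-05) and Ndufaf6 (0.89 ± 0.13, adjusted p = 0.000266) rose. In the leukaemias with both copies 4 were higher and 3 lower (9.48% and 11.9% of all genes), Sdhaf2 again among the lower (-1.28 ± 0.12, adjusted p = 1.8e-05). In oncogene-bearing precursors with both copies 0 were higher and 18 lower than in wild type (11.6% and 15.5% of all genes), with a median of -0.21, including Cox18, which inserts a complex IV subunit into the membrane (-0.94 ± 0.11, adjusted p = 0.00236), the F1 factor Atpaf2 (-0.46 ± 0.079, adjusted p = 0.00583) and Bcs1l, which places the Rieske protein (-0.66 ± 0.11, adjusted p = 0.00609). Cox18 was the single factor called in the heterozygous precursors (-0.61 ± 0.11, adjusted p = 0.0215).

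Among 16 electron carriers and coenzyme Q synthesis genes, 5 were higher and 4 lower in the heterozygous leukaemias against B220+ cells (12.9% and 18.9% of all genes). The smallest adjusted p values were those of Etfb, a subunit of the electron transfer flavoprotein (0.76 ± 0.059, adjusted p = 2e-06), the methyltransferase Coq3 (0.95 ± 0.11, adjusted p = 3.22e-05) and cytochrome c, Cycs (0.58 ± 0.11, adjusted p = 0.00117), all higher. In oncogene-bearing precursors with both copies 0 were higher and 4 lower than in wild type (11.6% and 15.5% of all genes). Of 5 other genes outside the rule, Atpif1, the inhibitor of the ATP synthase, was higher in both leukaemia groups (0.79 ± 0.12, adjusted p = 0.000254, and 1.04 ± 0.17, adjusted p = 0.000863), and Ndufab1, the acyl carrier protein of complex I, lower in the oncogene-bearing precursors with both copies (-0.53 ± 0.12, adjusted p = 0.0131).

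Of 18 regulators of mitochondrial genes, 4 were higher and 9 lower in the heterozygous leukaemias against B220+ cells, with a median of -0.26 (12.9% and 18.9% of all genes). Ppargc1a, the coactivator of mitochondrial biogenesis, was lower by 1.78 ± 0.11 (adjusted p = 3.21e-07), its nuclear receptor partner Esrra by 0.59 ± 0.054 (adjusted p = 7.97e-06) and the mitochondrial DNA polymerase Polg by 0.65 ± 0.10 (adjusted p = 0.000447). With both copies, 2 were higher and 5 lower (9.48% and 11.9% of all genes), with Ppargc1a again lower by 1.78 ± 0.16 (adjusted p = 1.6e-05). In oncogene-bearing precursors with both copies 0 were higher and 5 lower than in wild type (11.6% and 15.5% of all genes), among them Tfb1m, which methylates mitochondrial ribosomal RNA (-1.42 ± 0.20, adjusted p = 0.0035), which was also the regulator called in heterozygous precursors (-0.99 ± 0.20, adjusted p = 0.0303).

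Of the subunits encoded in mitochondrial DNA, ND3 and COX2 were measured, and 0 were called in any comparison. Against B220+ cells the heterozygous leukaemias differed by 0.11 ± 0.079 for ND3 (adjusted p = 0.294) and 0.03 ± 0.075 for COX2 (adjusted p = 0.776). Cell cycle genes stood beside all of these results: 17 of 19 were higher in each leukaemia group than in B220+ cells, with medians of 1.09 and 1.47, and the mean level of the list was 10.50 to 10.94 in heterozygous leukaemias, 10.90 to 11.42 in those with both copies, 9.18 to 10.03 in B220+ cells and 11.10 to 11.26 in wild-type precursors.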

How the data were processed

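The deposited table held log2 expression per probe set, made by the authors with oligo's RMA, per the submitters' processing notes. Versions, batches and whether all arrays were normalized together are not given in the sources read. Of 35556 probe sets, 21789 had 1 gene symbol and were used, 1621 had several and 12146 none. That gave 19938 genes; 6 probe sets with several symbols that matched the rule were left out. The members and all lists were chosen with earlier results of these data known.

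Group differences were tested with limma 3.58.1 in R 4.3.3 (lmFit, eBayes, two-sided, Benjamini-Hochberg over all genes, threshold 0.05). The 14 arrays of the leukaemia series shared 1 fit, the 10 precursor arrays another, and comparisons across them used all 24. Precision is limited by the number of arrays. The code was tested on simulated data.

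Named genes were catalytic subunits, isoform pairs and, per comparison, the 4 largest rises and 4 largest falls past the test, or all when at most 12 passed; of other lists, up to 3 members with the smallest adjusted p. Others, such as Cox6c, Uqcrc2 and Atp5j, were picked after their values were seen.

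Deviations of same-numbered arrays from their group means were correlated, with a limit of 0.1 for pairing. All 3 pairs of oncogene-bearing precursors were over it, at 0.208 to 0.250. So were the 2 pairs of leukaemia and precursor with both copies, at 0.167 and 0.183. The labels state no pairing. Alternatives were 1 fit of all arrays, other scalings, leaving out dim genes or each array, averaging probe sets, an intensity trend in the spread, array weights, the replicate block, and wild-type precursors as control.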

Additional observations from a re-analysis of the deposited data

Results flagged for a closer look

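Among 246 gene and group pairs, in groups of 4, 5 and 7 arrays, 11 had an array far from the rest of its group; chance alone gives about 1 in 20 groups. Heterozygous leukaemia 6 was such an array for 4 genes: Ndufb5 at 9.541 (others 9.91 to 10.18), Ndufs3 at 10.03 (10.30 to 10.42) and Cox4i1 at 9.27 (the others higher, up to 10.48) were low, and Cox6b2 at 9.157 (6.78 to 7.73) was high. Atp5g2 was high in heterozygous leukaemia 5 at 12.48 (12.12 to 12.27), and Atp5d was low in heterozygous leukaemia 1 at 12.4 (12.69 to 12.78). Among B220+ cells, Ndufs6 was high in array 5 at 8.958 (8.60 to 8.69) and Cox6a2 in array 4 at 10.83 (9.34 to 9.65). Among wild-type precursors, Ndufa1 was high in array 2 at 8.12 (7.68 to 7.74), Cox5b low in array 3 at 11.54 (11.83 to 11.86) and Atp5j2 low in array 4 at 10.79 (11.06 to 11.10). Without heterozygous leukaemia 6, 28 members were higher and 2 lower against B220+ cells.

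The change from precursor to leukaemia differed between the Pax5 genotypes for Ndufv1, with a tested difference of -0.67 (heterozygous minus both copies). As given above, this call was lost with cyclic loess, with array weights and on leaving out some single arrays. All precursors with both copies were male.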

How the results depend on the processing

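Among genes named by the rule and called in the main or the alternative fit, directions reversed under 2 alternatives. Sign changes of genes uncalled in both were not counted, and some members' medians changed sign under cyclic loess, as given below. With median centring Cox7b2 in heterozygous leukaemias against B220+ cells was -0.11, and with wild-type precursors as the control 12 members reversed in heterozygous leukaemias, among them Atp5md (-1.47), Atp5pb (-0.069), Cox6c (-0.011), Uqcrb (-0.048), Atp5g2 (-0.031), Ndufb6 (-0.21) and Ndufs3 (0.20), and 6 in leukaemias with both copies: Atp5md (-1.62), Ndufa13 (0.32), Ndufa7 (0.60), Ndufs8 (0.074), Ndufv2 (-0.0041) and Uqcrb (-0.081). Median centring gave members' medians of 0.0078 and -0.0043 in heterozygous leukaemias and those with both copies against B220+ cells, and 0 calls in heterozygous precursors. Cyclic loess gave medians of 0.223 (leukaemias with both copies against B220+ cells), 0.0771 (precursors with both copies against wild type), -0.0661 (between oncogene-bearing precursors), 0.0768 (leukaemia against precursor, both copies) and 0.0583 (difference of stages), and counts of 16, 2, 10 and 0 for leukaemias with both copies, heterozygous precursors, precursors with both copies and the difference of stages. Array weights gave 2 for leukaemias with both copies, 24 for heterozygous precursors, 1 between precursors, 39 between the wild types, 41 and 5 for the stages (heterozygous, both copies) and 0 for their difference. With the replicate block the counts were 5 for leukaemias with both copies, 0 for heterozygous precursors and 2 for the difference of stages, and 0 for the paired oncogene-bearing precursors. With wild-type precursors as the control, medians were 0.0272 and 0.0353, and leukaemias with both copies had 14 calls. Leaving out each array in turn gave counts of 16 to 30 and 3 to 14 for the leukaemias (heterozygous, both copies) against B220+ cells, 0 to 2 between them, 0 to 4 and 9 to 18 for the precursors (heterozygous, both copies) against wild type, 0 to 0 between them, 15 to 17 between wild types, 17 to 37 and 14 to 23 for the stages and 0 to 2 for their difference. In the same order the medians ranged from 0.129 to 0.173, 0.078 to 0.177, -0.0153 to 0.0351, -0.0653 to 0.0633, -0.116 to -0.0217, -0.0275 to 0.121, -0.126 to -0.0651, 0.0228 to 0.118, 0.0815 to 0.185 and -0.111 to 0.0166. A lone array left in a group was assumed to vary like the others. For named genes, 5621 alternative values kept their side of the threshold, 246 lost the call, 90 gained one and 7 reversed. Only the genes named by the rule in each comparison were counted. Direction was compared only where the main or the alternative fit made a call, so sign changes of values uncalled in both are among the 5621. The causes were not tested.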
